A study of Mus musculus with 8 samples.

Results

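The clustered replication-dependent histone genes supply the cell with histones during S phase. They were taken as all genes of the GENCODE vM21 annotation whose symbols start with Hist1h, Hist2h, Hist3h or Hist4. This rule found 70 of the 55413 genes on the assembled chromosomes. Of these, 67 were among the 21938 protein-coding genes and 3 were annotated as pseudogenes (Hist3h2bb-ps, Hist1h2aj and Hist1h2al). The set held 6 genes for the linker histone H1, 20 for H2A, 19 for H2B, 12 for H3 and 13 for H4.

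The study profiled H3K56ac, the acetylation of lysine 56 in histone H3, by ChIP-seq to ask where the mark lies in muscle stem cells (MuSCs) and how it depends on the deacetylase SIRT6. MuSCs were sorted by flow cytometry from C57BL/6 mice and used without culture. The study calls its Control mice wild type, but for other experiments it gives floxed Sirt6 mice without Cre as controls. The labels say only Control. Sirt6mKO mice carried floxed Sirt6 alleles and a Cre recombinase driven from the Pax7 locus, which is active throughout the muscle lineage, so recombination was not limited to adult MuSCs. The labels describe 8 libraries in 4 groups of 2, an H3K56ac library and an input library (chromatin without immunoprecipitation) for each replicate of each genotype. The data analysed here were 1 merged list of 105600 peaks that names no genotype and no replicate. The list thus holds no replicate values and no read counts, and Control and Sirt6mKO cannot be told apart at any gene below. Reads with a single alignment in the genome were kept, which bears on near-identical gene copies.

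Replication-dependent histone genes are short and lack introns, and their mRNAs end in a conserved stem-loop in place of a poly(A) tail. The stem-loop is bound by the protein SLBP. H2A and H2B genes often lie head to head and share one promoter region. NPAT, which is activated by cyclin E and CDK2, drives their transcription at the start of S phase, and OCT1 acts through the octamer of H2B promoters. Freshly isolated MuSCs are mostly quiescent, and adult cells outside S phase rely on replication-independent histones such as H3.3.

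Sequences are shown first, because copy number and promoter layout recur in the results. Coordinates are those of mm10 (GRCm38), counted from 1. The codon for lysine 56 is the 57th when the start codon is counted, and codon 57 was AAG in 11 of the 12 H3 genes. In Hist2h3c1 codon 57 was ACC. The annotated coding sequence of that gene is longer, at 543 bp against 408 bp in the other H3 genes. Codon 57 there is not a lysine codon and so is not the one for lysine 56, and the gene is left out below. The lysine 56 codon serves here as a landmark inside the H3 coding sequence. In the stretches of 63 bases below, the codon is in capitals with 30 bases on either side. Among the 11 genes with AAG, the first was shared by 8 genes of the Hist1 cluster, the second by Hist2h3c2 and Hist2h3b, and the third belonged to Hist1h3e. For Hist2h3c2 and Hist2h3b the 150 bases around the codon were found 3 times in the genome. The second stretch thus also occurs outside Hist2h3c2 and Hist2h3b, at a place that was not looked up.
Hist1h3b, chr13:23752518-23752580, plus strand: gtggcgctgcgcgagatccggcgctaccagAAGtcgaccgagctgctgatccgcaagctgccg
Hist2h3b, chr3:96268832-96268894, plus strand: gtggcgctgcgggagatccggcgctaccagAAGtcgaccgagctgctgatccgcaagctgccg
Hist1h3e, chr13:23562165-23562227, minus strand: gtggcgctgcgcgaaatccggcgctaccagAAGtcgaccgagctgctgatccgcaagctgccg
Against the first stretch, with positions counted from its 5′ end, the second differed by C12G and the third by G15A.

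The promoters below are the 150 bases before the RefSeq start of 4 genes (RefSeq annotation of GRCm38.p6). They were chosen to set a shared H2A/H2B promoter that lay in a peak beside that of the germ cell pair, and a somatic H1 promoter beside the germ cell H1. Capitals mark the TATA box TATAAA, the CCAAT box, the octamer ATTTGCAT and the H1 box AAACACA, read on either strand.
Hist1h2bg, chr13:23571250-23571399, plus strand: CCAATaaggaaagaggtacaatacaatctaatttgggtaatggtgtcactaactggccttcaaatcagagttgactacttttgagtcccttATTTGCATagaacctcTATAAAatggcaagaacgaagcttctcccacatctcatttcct
Hist1h2aa, chr13:23934287-23934436, plus strand: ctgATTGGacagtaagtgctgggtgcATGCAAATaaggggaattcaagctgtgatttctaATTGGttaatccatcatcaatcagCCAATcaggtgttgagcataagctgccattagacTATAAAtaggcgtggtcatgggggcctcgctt
Hist1h1c, chr13:23738657-23738806, plus strand: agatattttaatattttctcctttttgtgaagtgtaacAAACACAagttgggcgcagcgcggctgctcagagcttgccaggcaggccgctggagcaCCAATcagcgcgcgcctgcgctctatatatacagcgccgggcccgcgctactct
Hist1h1t, chr13:23695661-23695810, plus strand: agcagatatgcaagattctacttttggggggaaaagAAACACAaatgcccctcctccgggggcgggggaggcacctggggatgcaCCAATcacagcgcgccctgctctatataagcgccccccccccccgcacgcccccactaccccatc

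The most common 3′ stem-loop was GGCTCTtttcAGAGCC, with the stem in capitals and the loop in lower case. It was found in 41 of the 67 coding members. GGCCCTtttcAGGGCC was found in 8 H4 genes.

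Most histone genes had a merged H3K56ac peak near their start, though not always over it. Of the 70 members, 62 had a merged peak within 1 kb of an annotated transcription start site (TSS), or 88.6% (Wilson 95% interval 79.0 to 94.1%, counting error only). This compared with 38.1% of all genes and 65.4% of protein-coding genes. Histone genes are short and lack introns. Of protein-coding genes of up to 2 kb, 28.1% had one, and of single-exon coding genes other than receptors and members 32.3% did. A peak lay over a TSS itself in 49 members, or 70%, compared with 62.1% of protein-coding genes. No test was run on these shares, since neighbouring members share peaks and are not replicates.

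All 6 muscle stem cell markers examined, among them Pax7 and Myf5, had a peak within 1 kb of a TSS, with a median width of 16656.5 bp for the widest. Of the 6 markers of other cells, Pecam1 (endothelial, 3440 bp) and Pdgfra (fibro-adipogenic, 4396 bp) had one, and Cdh5, Ptprc, Itgam and Ly6a had none.

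All 6 H1 genes had a peak over the TSS. These encode linker histones, which bind the DNA between nucleosomes. Among the core histones, a peak within 1 kb was found at 17 of 20 H2A genes, 16 of 19 H2B genes, 11 of 12 H3 genes and 12 of 13 H4 genes. A peak over the TSS was found at 11 H2A, 13 H2B, 10 H3 and 9 H4 genes. At a distance of 1 kb the shares ran from 84.2% for H2B to 100% for H1, and the Wilson intervals of all 5 types overlapped. Over the TSS they ran from 55% for H2A to 100% for H1.

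By cluster, 49 of 56 Hist1 genes, 9 of 10 Hist2 genes, 3 of 3 Hist3 genes and Hist4h4 had a peak within 1 kb. The Hist1 genes fell into blocks separated by more than 100 kb. Hist1 block 1 (chr13:21715763-21837530) held 19 members, of which 14 had a peak within 1 kb and 7 had one over the TSS. Hist1 block 2 (chr13:22035164-22043676) held 5 members, all with a peak within 1 kb and 2 with one over the TSS. Hist1 block 3 (chr13:23531050-23764406) held 29 members, and all 29 had a peak over the TSS. Hist1 block 4 (chr13:23933773-23934851) was the germ cell pair Hist1h2ba and Hist1h2aa, and neither had a peak. The pseudogene Hist1h2al lay alone (chr13:51202727-51203065) with a peak of 1239 bp over its 5′ end.

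**Figure D1:**
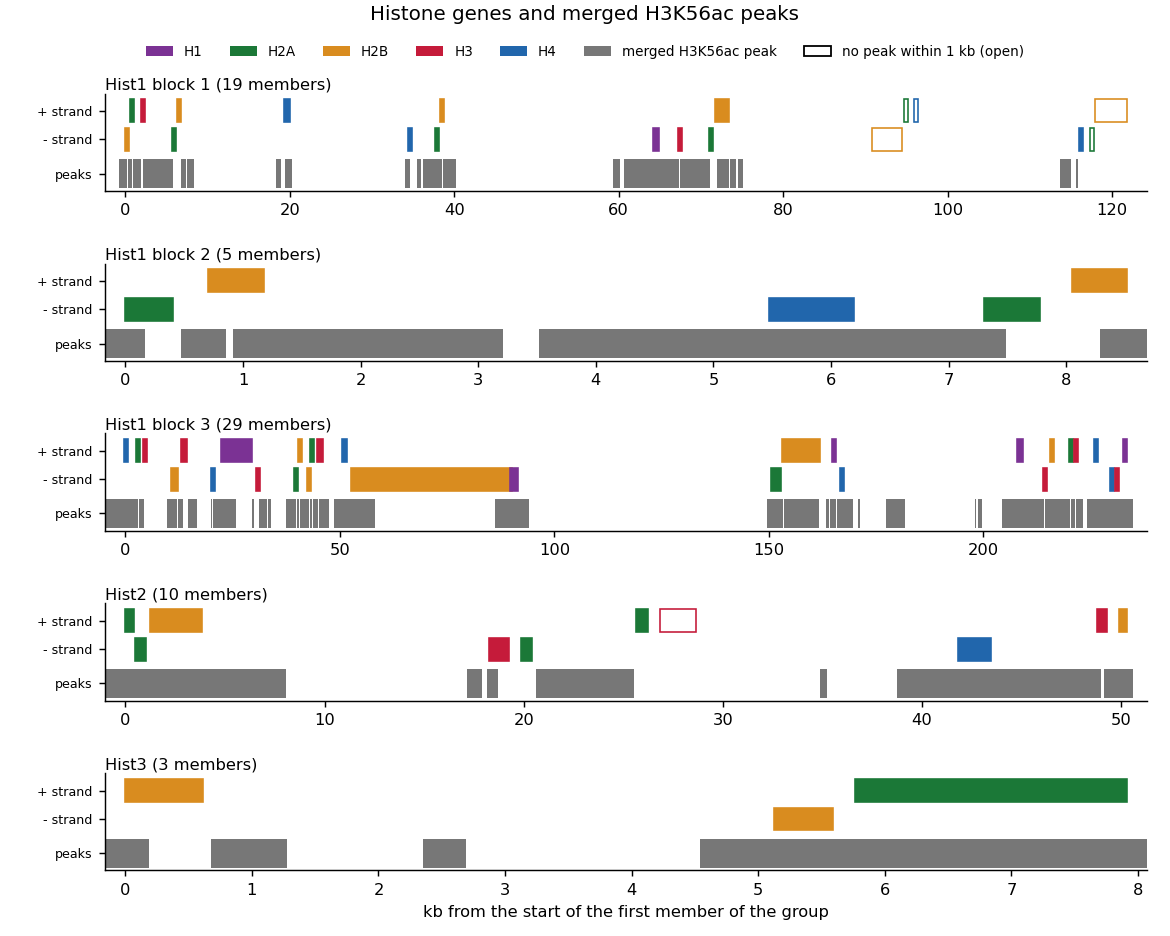
Members and merged H3K56ac peaks in 5 groups of histone genes, with the distance in kb from the start of the first member on each axis. Boxes are genes coloured by histone type on their strand, filled where a peak lay within 1 kb of a TSS and open where none did, and grey bars are peaks. In the map 5 of the 19 members of Hist1 block 1 and 1 of the 10 Hist2 members are open, and all 29 members of Hist1 block 3 are filled.

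Peaks covered 23.9% of Hist1 block 1, 82.7% of block 2 and 41.6% of block 3. The other clusters were covered over 51.7% (Hist2, chr3:96219865-96270132), 56.97% (Hist3, chr11:58948920-58956830) and 71.7% (Hist4h4, chr6:136801553-136804415). The space between Hist1 blocks was less covered, at 12.9% between blocks 1 and 2, 4.23% between blocks 2 and 3 and 6.00% between blocks 3 and 4.

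Most other coding genes within the Hist1 region belonged to the Vmn1r family, which lacked peaks. From the first to the last gene of blocks 1 to 4 (2219.1 kb), 49 other coding genes were annotated, and 9 had a peak within 1 kb of a TSS. Of all protein-coding genes 65.4% had one. None of the 36 Vmn1r genes, which encode vomeronasal receptors, had one. The 9 were Btn1a1, Btn2a2, Slc17a1, Zfp184, Zfp322a, Pom121l2, Prss16, Abt1 and Hfe. Outside the Vmn1r family only Slc17a2, Slc17a3, Slc17a4 and Trim38 lacked one.

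The peaks at histone genes were often shared between members. The 62 genes with a peak drew on 62 distinct peaks, of which 21 lay within 1 kb of 1 member, 30 of 2 members and 11 of 3 or more. Of these peaks 14 covered the 5′ ends of at least 2 members. Their median width was 1624.5 bp, against 974 bp for all 105600 peaks, and 17.7% were at least 5 kb wide, against 6.00% of all peaks. The full list was not limited to peaks near a TSS, so it is not a matched background. Per gene, the widest peak within 1 kb had a median of 3966 bp (quartiles 2245 and 6058 bp), against 3413 bp (2251 and 4910 bp) for protein-coding genes with a peak. The quartile ranges overlapped.

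H1 genes had the highest median width, 5218 bp. The widest peak was 9698 bp at Hist1h1c, 7123 bp at Hist1h1e, 5290 bp at Hist1h1d, 5146 bp at Hist1h1b and 3626 bp at Hist1h1a. At Hist1h1t, the testis-specific H1 gene, it was 967 bp. The germ cell gene thus had a peak over its TSS like the somatic H1 genes, but the narrowest of the 6. The Hist1h1t promoter shown above lay in a peak over 4.67% of its bases, and that of Hist1h1c over 100%. The rest of the Hist1h1t promoter shown was a gap of 143 bp between neighbouring peaks. Hist1h1t had 3 peaks within 1 kb, and 82.3% of its window of 2 kb around the 5′ end was covered, against 100% at Hist1h1c. The peak over Hist1h1c also lay within 1 kb of Hist1h3c.

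Medians of the widest peak were 4751 bp for H4, 3966 bp for H2A, 3649.5 bp for H2B and 2229 bp for H3 genes. Widths at H3 genes ran from 529 bp at Hist2h3c2 to 10260 bp at Hist2h3b, so the types overlapped widely. In the Hist2 cluster, 1 peak of 7260 bp lay within 1 kb of the starts of Hist2h2ab, Hist2h2ac and Hist2h2be, and 1 of 10260 bp within 1 kb of those of Hist2h4, Hist2h3b and Hist2h2bb. The members that lay whole inside the widest peaks were Hist2h4 (10260 bp), Hist1h1c (9698 bp), Hist3h2a and Hist3h2bb-ps (both in 1 peak of 8199 bp) and Hist2h2be (7260 bp).

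Some members, 5 in the set described here, are known for transcripts that carry a poly(A) tail in cells that do not divide. The widest peak within 1 kb was 9698 bp at Hist1h1c, 8282 bp at Hist4h4, 8201 bp at Hist1h2bc, 7260 bp at Hist2h2be and 4954 bp at Hist2h2aa1. All 5 were above the median of the members, in a list chosen with earlier results of these data known. The widths are largely those of shared peaks. The peak at Hist2h2be lay within 1 kb of 3 members, and those at Hist1h1c, Hist1h2bc and Hist2h2aa1 of 2 each. The peak at Hist4h4 also covered H2afj. No peak overlapped Hist2h2aa1 itself, whose 5′ end was 73 bp from the nearest. In its window of 2 kb around the 5′ end, 45.7% of 50-mers were unique.

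Peaks covered a median of 72.2% of the gene body of members, against 7.82% for protein-coding genes and 0% for protein-coding genes of up to 2 kb. Only 446 of the 1588 genes of up to 2 kb had a peak within 1 kb of a TSS. Their median of 0% thus says little about coverage where a peak is present. That set was chosen by length alone, with receptors and members left in. In full were covered 17 members, 16 of them coding. Among all coding genes 1.68% were covered in full, and among those of up to 2 kb 13.4%. No base was covered in 11 members. Of the 6 H1 genes 5 were covered in full, and Hist1h1d, whose gene model is long, over 49.8%. None of the 12 H3 genes was covered in full, and the highest was Hist1h3d with 85.0%. H4 genes were covered in full in 6 of 13 cases.

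**Figure D2:**
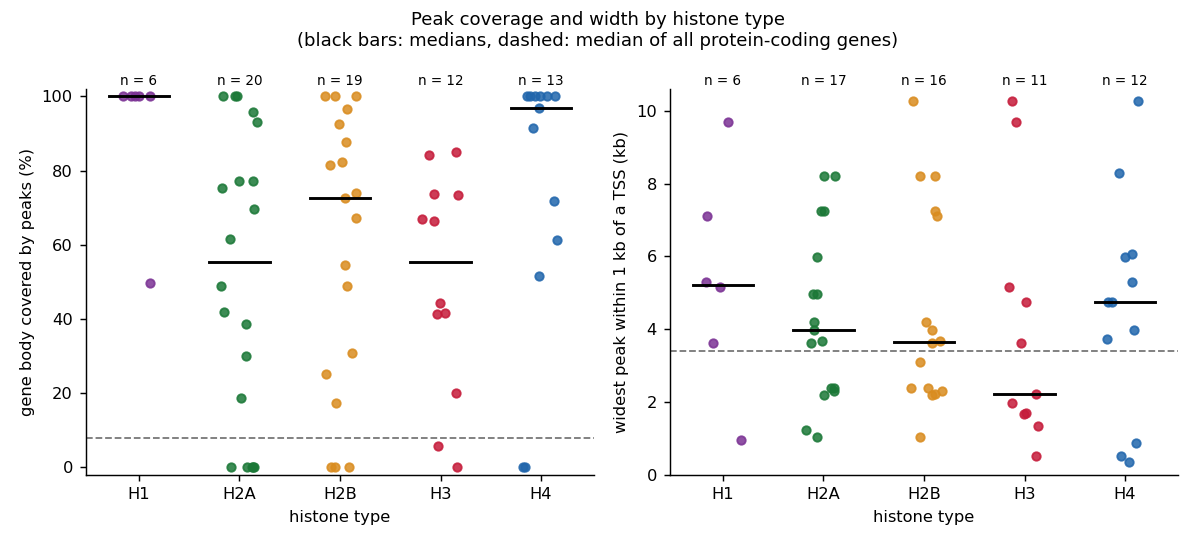
Share of the gene body covered by merged peaks (left, %) and width of the widest peak within 1 kb of a TSS (right, kb), 1 point per gene, by histone type. Black bars are medians, and the dashed lines are the medians of all protein-coding genes (7.82% and 3413 bp). No H3 gene reaches full coverage, while 5 of 6 H1 genes do, and the widths of the 5 types overlap.

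Short breaks between peaks within the clusters often lay in coding sequence. Histone coding sequences are near-identical between members, so the share of 50-mers found once in the genome (unique 50-mers) was computed at each position. Of the 44 gaps of under 500 bp between neighbouring peaks in the clusters, 27 (61.4%) held coding sequence of a member, compared with 2.07% of the 36531 such gaps in the genome that held coding sequence of any gene. The clusters were chosen for their coding genes, so the genome is not a matched background. Within the clusters, member coding sequence made up 51.9% of the bases of these short gaps and 9.63% of those inside peaks. In the 27 gaps with member coding sequence 25.7% of 50-mers were unique, and fewer than 50% were in 25 of the 27. In the other 17 short gaps 97.2% were unique. Of the 31 gaps of 500 bp or more, 10 held member coding sequence, which made up 2.18% of their bases, and 77.0% of their 50-mers were unique. Inside the peaks 94.5% were.

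Along the 59 coding members with a peak, peaks covered 80.6% of the 250 bp before the coding start, 67.5% of the coding sequence and 88.6% of the 250 bp after its end. Unique 50-mers made up 93.9%, 44.9% and 92.4% of these segments. The lowest point was 180 bp into the coding sequence, where 35.6% of members were in a peak, compared with 88.1% of 14282 other coding genes with a peak at 180 bp from their 5′ end. Of coding bases inside peaks, 59.0% had a unique 50-mer, and of those outside peaks 15.5%. With 150-mers, the longest tried, the shares were 87.7% and 45.8%. The part of read alignment in these breaks was not tested.

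The coding sequence of H1 genes was covered over 100%, that of H4 over 82.6%, H2B 64.1%, H2A 57.6% and H3 44.3%. Unique 50-mers made up 88.5%, 48.8%, 41.8%, 31.8% and 24.6% of these sequences in the same order of types. The order by coverage and the order by uniqueness were thus the same over the 5 types in this segment. In the 250 bp before the coding start they differed. H2B genes were covered over 79.9% there with 100% unique 50-mers, and H3 genes over 90.9% with 92.7%. A link between coverage and uniqueness was not tested. H2A and H2B genes also had a dip about 500 bp before the coding start, to 46.7% and 40%, where the coding sequence of the head-to-head partner lies.

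The codon for lysine 56 lay outside every peak in all 11 H3 genes that carry it at this place, although all 11 had a peak within 1 kb. It was between 7 bp (Hist1h3a) and 211 bp (Hist2h3c2) from the nearest peak, with a median of 52 bp. The 50-mer at the codon was found more than once in the genome in 10 of the 11 genes, and was found 8 times for Hist1h3b. At Hist1h3e it was found once, and the codon was 8 bp from a peak. The 150-mer at the codon was found more than once in 8 of the 11 genes. It was found once at Hist1h3e, at Hist1h3f (77 bp from a peak) and at Hist1h3g (163 bp). At the same codon number, 6 of 6 H1, 10 of 12 H4, 4 of 15 H2A and 4 of 15 H2B coding genes with a peak were in a peak.

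**Figure D3:**
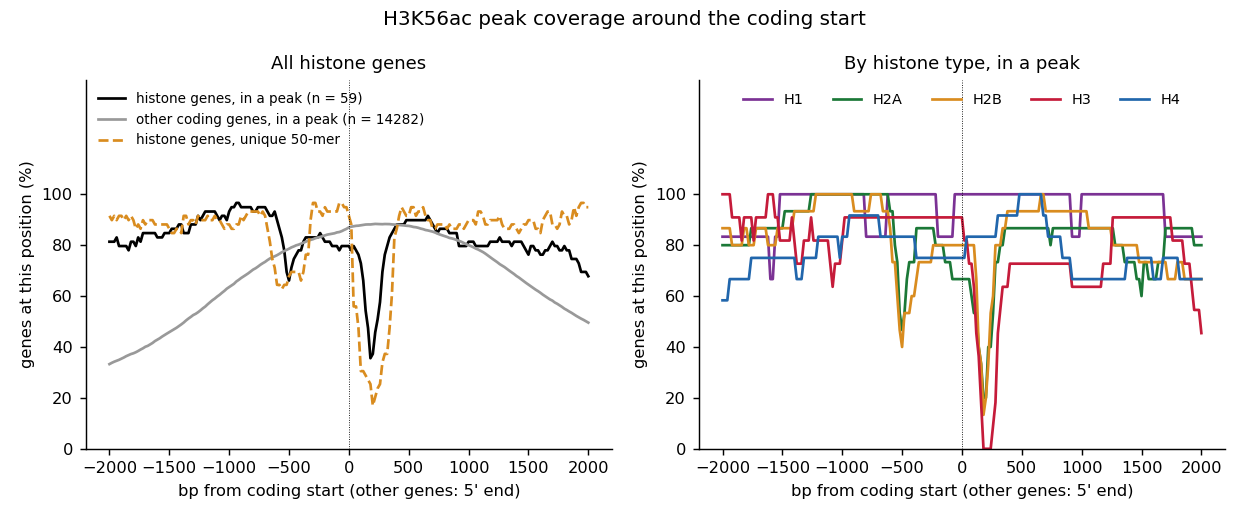
Share of genes (%) in a merged peak at each distance from the coding start (bp), for the 59 coding histone genes with a peak and, from the 5′ end, 14282 other coding genes (left), and by histone type (right). The dashed line gives the share of histone genes with a unique 50-mer at the position. Histone genes fall to 35.6% at 180 bp, and H3 genes are at 0% and H1 genes at 100% there.

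Head to head lay 14 pairs of H2A and H2B genes, with 172 to 305 bp between their 5′ ends. In 7 pairs 1 peak covered both starts and all the space between. These were Hist2h2ac/Hist2h2be, Hist3h2bb-ps/Hist3h2a, Hist1h2bl/Hist1h2ai, Hist1h2ak/Hist1h2bn, Hist1h2ae/Hist1h2bg, Hist1h2bf/Hist1h2ad and Hist1h2ac/Hist1h2bc. The space of Hist1h2ah/Hist1h2bk was covered over 76.4%. The uncovered pairs Hist1h2aj/Hist1h2bm, Hist1h2an/Hist1h2bp and Hist1h2ag/Hist1h2bj had peaks within 1 kb, and all 50-mers in their spaces were unique. The other 3 uncovered pairs had no peak within 1 kb. Of these, Hist1h2bq/Hist1h2ao and Hist1h2ap/Hist1h2br had 0% unique 50-mers between them, and Hist1h2ba/Hist1h2aa had 100%.

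No peak lay within 1 kb of a TSS in 8 members, all of them coding. Of these, 5 lay together at the end of Hist1 block 1. Distances from the 5′ end to the nearest peak were 19237 bp for Hist1h2bq, 18969 bp for Hist1h2ao, 17688 bp for Hist1h4m, 1824 bp for Hist1h2ap and 2060 bp for Hist1h2br. In the window of 2 kb around the 5′ end, unique 50-mers made up 6.85% for Hist1h4m and 0% for the other 4. They remained at 0% for those with 150-mers. Hist2h3c1 of the Hist2 cluster was 1261 bp from a peak, with 22.1% unique 50-mers. A lack of peaks at these 6 genes and a lack of reads that align once cannot be told apart here.

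The germ cell pair differed in this respect. Hist1h2ba and Hist1h2aa encode histones of the testis, and they were 6031 and 5725 bp from the nearest peak. Unique 50-mers made up 93.1% of the window of either gene. Their shared promoter held the octamer, CCAAT and TATAAA, as shown above for Hist1h2aa.

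Of the 19 members with at least 90% unique 50-mers in the window, 17 had a peak within 1 kb, the exceptions being the germ cell pair. All 41 members with 50 to 90% had one. Of the 10 members with under 50%, 4 had a peak within 1 kb and 0 had one over the TSS. These 4 were Hist2h3c2, Hist2h2aa2, Hist2h2aa1 and Hist1h4n. Near the limit of 1 kb, Hist2h3c2 (567 bp from a peak), Hist1h4n (513 bp) and Hist1h2bm (433 bp) were the farthest inside, and Hist2h3c1 (1261 bp) was the nearest outside.

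**Figure D4:**
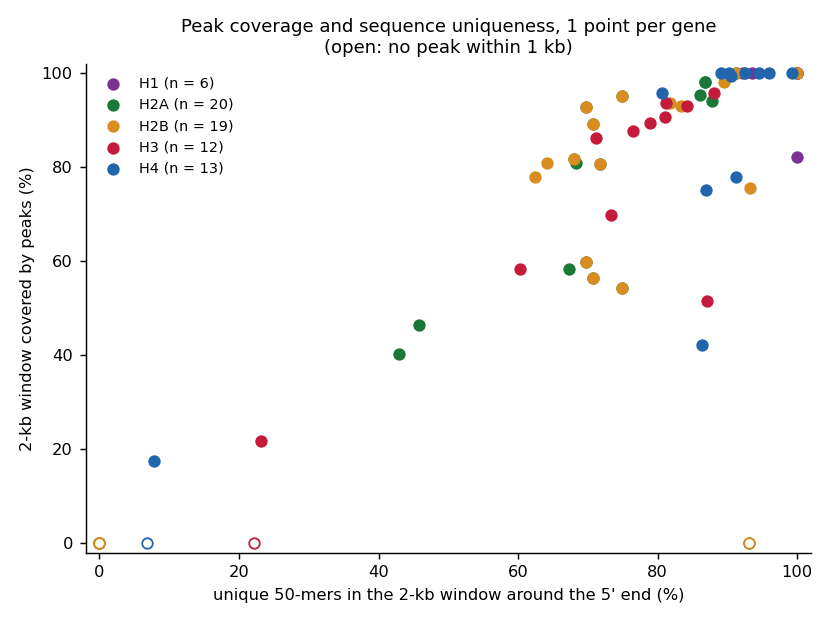
Share of the window of 2 kb around the 5′ end covered by peaks (%) against the share of unique 50-mers in it (%), 1 point per histone gene, coloured by type and open where no peak lay within 1 kb. Genes of a head-to-head pair often coincide, with the H2B point on top. Of the 8 open points, 6 have under 50% unique 50-mers, and the remaining 2, drawn on top of each other at 93.1%, are the germ cell pair.

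A stem-loop with a stem of 6 bp starting with GG and a loop of 4 bases starting with TTT was found within 150 bp of the coding end in 63 of 67 coding members. It began 25 to 62 bp after the coding end, with a median of 34 bp. None was found for Hist2h2be, Hist1h2an, Hist1h3g and Hist1h4a. Of the 55 members with both a stem-loop and a peak within 1 kb, 49 had the stem-loop inside a peak. Peaks thus lay over the 3′ ends of most of these genes as well as over their starts. The kind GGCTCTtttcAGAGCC lay in a peak in 32 of 41 genes and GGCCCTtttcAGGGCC in 6 of 8.

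All 70 members matched a RefSeq gene, and 62 had a RefSeq promoter sequence (250 bases before to 50 after the start). Motifs were counted on both strands, and none of the 4 motifs contains another. CCAAT was found in 85.5% of member promoters, against 37.9% of 27025 RefSeq promoters, TATAAA in 56.5% against 14.2%, ATTTGCAT in 22.6% against 1.75% and AAACACA in 14.5% against 7.14%. These counts took a match anywhere in the promoter sequence. Counted only from 40 to 20 bases before the start, TATAAA was in 12 of 62 member promoters (19.4%), against 2.22%. CCAAT was in all H1, H2A, H2B and H3 promoters but in 3 of 12 H4 promoters. The octamer ATTTGCAT was in 7 of 18 H2A and 7 of 16 H2B promoters and in no others. Since the pairs share a promoter, these are not separate counts. The H1 box AAACACA was in 5 of 6 H1 promoters. A motif match here describes the sequence and does not show that a factor was bound.

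The same motifs were found in promoters of members with and without a peak. TATAAA was in 32 of 54 with a peak and 3 of 8 without, CCAAT in 46 and 7, and ATTTGCAT in 12 and 2. The median GC content of member promoters was 45.3%, against 52.7% over all RefSeq promoters, while the median ratio of observed to expected CpG was 0.74 against 0.389.

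Of 16 replication-independent histone genes, 12 had a peak within 1 kb of a TSS, beside 65.4% of all protein-coding genes. The median width of their widest peak was 3998.5 bp, beside 3413 bp for all protein-coding genes with a peak. H3f3a and H3f3b, which encode H3.3, had widest peaks of 4778 and 2069 bp. H2afz, the gene of H2A.Z, had one of 2972 bp, and H1f0, the gene of the linker histone of resting cells, one of 5635 bp. H2afj shared the peak of 8282 bp with its neighbour Hist4h4. The 4 genes without a peak were H2afb1, H3f3c, H1fnt and Hils1, of which H1fnt and Hils1 are known from male germ cells. All 19 genes for the transcription of histone genes and for their mRNA 3′ end processing had a peak, and the median width of their widest peak was 4051 bp, beside the same 65.4% and 3413 bp. Npat had one of 7446 bp, Slbp 6606 bp, Ccne1 6090 bp and Cdk2 4091 bp.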

How the data were processed

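H3K56ac and input libraries of freshly isolated MuSCs were sequenced on an Ion Proton, with 2 biological replicates per group. The study's methods give Trim Galore, bowtie with single alignments kept, Picard, MACS2, removal of blacklisted regions and merging with GenomicRanges, described for embryonic stem cells and applied likewise to MuSCs. The submitters' processing notes list FastQC, Bowtie, SAMtools, deepTools and mm10. The deposited list gives the start and end of each merged interval. Its deposited score column was 0 in every row and was not used. It has 0 columns of per-sample values, and which libraries entered the merge is not given in the sources used here. Merging widens and fuses peaks, so widths describe a union of libraries.

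Members, lists and comparisons were chosen with earlier results of these data known, and the lysine 56 codon as a landmark after its coverage had been seen. Named were all H1 genes, members without a peak, those in the widest peaks, germ cell members, members known for polyadenylated transcripts, Hist2, Hist3 and Hist4 genes, and the 2 gene lists. Pairs, stem-loops and genes at the distance limit were named after their values were seen. A peak counted if it came within 1 kb of any annotated TSS. Intervals on shares are Wilson 95% intervals. No test was run.

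Copies of each 50-, 100- and 150-mer were counted on both strands of 66 GRCm38 sequences, alternate loci and patches left out. Exact matches were counted, without the mismatches that alignment allows, and the 50-mers are shorter and the 100-mers longer than the reads the study describes, so these shares only approximate where reads align once. The gene model of Hist1h2be extends far upstream of its coding sequence, and windows of this gene are those of the upstream start. The functions were tested on simulated data. Python 3.11.15, numpy 2.4.6, scipy 1.17.1, numba 0.67.0, pysam 0.24.0 and matplotlib 3.10.9 were used. Alternatives varied the distance, the TSSs, the intervals and the members counted.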

Additional observations from a re-analysis of the deposited data

How the results depend on the processing

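No paired analysis was possible because peaks carry no values per sample. Tests of genotype at histone genes (edgeR, DESeq2, replicates left out) had been planned and were not run for the same reason. Of 50 alternative values for 20 results, 12 moved and 0 reversed. A share counted as moved outside the Wilson 95% interval of the reported value, a median outside its 95% interval from order statistics, and the covered share of a cluster beyond 1.5 times the reported one. With a peak required over the TSS, the share of members was 70%, of H2A genes 55% and of Hist1 genes 69.64%. Within 3 kb it was 100% for both H3 and Hist2 genes. Among members with at least 50% unique 50-mers it was 96.67% (58 of 60), and with 150-mers, an alternative chosen after seeing the data, 96.77% (60 of 62). Counting from the coding start, also chosen after seeing the data, left 59 of 67. Intervals under 1 kb apart, once joined, gave a median widest peak of 10013 bp and a median covered gene body of 100%, and counting each peak once gave 1624.5 bp. With 10 kb added on either side, coverage of Hist1 block 4 was 4.844% and that of the lone Hist1h2al 12.13%, by construction of the longer region. Peak heights, replicate spread and depth are not in the list, so a gene without a peak may carry the mark below the calling threshold.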
